A study of Mus musculus with 12 samples.

Results

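The genes described here encode the nuclear subunits of respiratory complexes II, III and IV and of the ATP synthase, complex V, in 2 cell fractions of mouse fat. They were taken as the 38 symbols of a fixed subunit list that the table of genes holds, under the older Atp5 names where the table uses those. All 38 were found among 16670 genes listed: 4 of complex II, 9 of complex III, 10 of complex IV and 15 of complex V. The core subunits of complexes III, IV and V that mitochondrial DNA encodes are not analysed here.

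The RNA came from the inguinal white fat, which lies beneath the skin of the groin, of female C57BL/6 mice. The mice were labelled Kdm5c+/-, heterozygous for an X-linked gene that encodes a histone demethylase, or Kdm5c+/+, called wild type here. Fat of 2 mice was pooled and digested, and each pool was parted into floating mature adipocytes and a pellet of stromal vascular cells, which holds progenitors together with blood vessel and immune cells. Each genotype label and fraction had 3 libraries, so n = 3 in each of 4 groups. Within a fraction, p-values measure the spread between pools. Across fractions, the main fits treat the libraries as unpaired, and a fit that pairs the fractions is given at the end. Neither the age of the mice nor the kind of mutant allele is given in the labels. The comparisons ask how the fractions differ, and whether the genotype labels differ within a fraction.

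Libraries held 21836878 to 29434125 reads over the genes listed, and levels are in CPM, reads per 1000000 of a library's total. A level of 3 reads, taken as the floor of detection for counting error only, was 0.102 to 0.137 CPM. Kdm5c itself had 158, 190.3 and 158 CPM in mature adipocyte libraries labelled Kdm5c+/-, against 179, 174 and 180.0 CPM in wild-type ones (log2 difference -0.08 ± 0.10, limma adjusted p = 0.717). In stromal vascular libraries it had 194, 190.4 and 175 CPM under the Kdm5c+/- label, against 188, 185 and 180.1 CPM in wild type (0.01, adjusted p = 0.978). The level of the gene therefore did not separate the labels, and groups are called by their label. The fractions carried their defining markers: 10 mature adipocyte markers summed to 39734 to 55448 CPM in mature adipocytes, against 4546 to 8271 CPM in the stromal vascular fraction, and 10 endothelial markers to 127 to 349 CPM, against 6911 to 9288 CPM. In bulk samples, fewer cells of a type and less RNA per cell cannot be told apart.

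The respiratory chain of the inner mitochondrial membrane passes electrons from nutrients to oxygen and pumps protons, and the ATP synthase uses the proton gradient to make ATP. Complex II, succinate dehydrogenase, is also an enzyme of the citric acid cycle and hands electrons to ubiquinone. Complex III passes them to cytochrome c, and complex IV, cytochrome c oxidase, reduces oxygen. White adipocytes use this machinery for their own energy and for lipid synthesis and breakdown, while brown and beige adipocytes can run the chain to make heat.

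Regulatory words found in the promoters of some of these genes are shown first. Their part in the difference between fractions was not tested. RefSeq windows of 300 bases on GRCm38.p6, 250 before the start of a gene and 50 after, were found for 30 of the 38 genes (33 windows). One window of each complex is printed, chosen after the matches were counted because it holds several of the words searched. Capitals mark the NRF1 word CGCANGCGC, the ETS word CCGGAAG and the ERR word AAGGTCA, on either strand. NRF1 and GABP, an ETS factor, are known activators of nuclear genes for mitochondrial proteins, and ERR stands for the estrogen-related receptors, partners of the coactivator PGC-1alpha. Sdhd lies at chr9:50603800-50604099, Uqcr11 at chr10:80406772-80407071, Cox6a1 at chr5:115348909-115349208 and Atp5k at chr5:108434350-108434649, and all are read 5′ to 3′ on the minus strand.
Sdhd: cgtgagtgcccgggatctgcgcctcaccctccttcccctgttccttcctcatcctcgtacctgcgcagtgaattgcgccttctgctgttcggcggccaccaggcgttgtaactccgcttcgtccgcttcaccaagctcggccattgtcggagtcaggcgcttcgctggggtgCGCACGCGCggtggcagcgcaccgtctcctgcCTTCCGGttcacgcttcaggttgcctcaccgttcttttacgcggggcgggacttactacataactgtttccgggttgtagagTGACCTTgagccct
Uqcr11: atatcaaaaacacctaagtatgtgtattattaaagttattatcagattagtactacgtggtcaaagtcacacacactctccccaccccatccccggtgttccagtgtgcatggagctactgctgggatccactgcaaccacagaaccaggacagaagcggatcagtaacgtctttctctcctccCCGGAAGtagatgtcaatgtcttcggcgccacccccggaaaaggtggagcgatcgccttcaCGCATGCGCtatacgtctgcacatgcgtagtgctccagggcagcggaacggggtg
Cox6a1: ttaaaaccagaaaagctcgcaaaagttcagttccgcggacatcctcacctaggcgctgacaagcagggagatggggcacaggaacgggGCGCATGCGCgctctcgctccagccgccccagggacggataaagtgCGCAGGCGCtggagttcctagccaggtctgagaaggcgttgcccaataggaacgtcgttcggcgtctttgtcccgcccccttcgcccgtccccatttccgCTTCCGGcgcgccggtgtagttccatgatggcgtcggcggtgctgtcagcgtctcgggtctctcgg
Atp5k: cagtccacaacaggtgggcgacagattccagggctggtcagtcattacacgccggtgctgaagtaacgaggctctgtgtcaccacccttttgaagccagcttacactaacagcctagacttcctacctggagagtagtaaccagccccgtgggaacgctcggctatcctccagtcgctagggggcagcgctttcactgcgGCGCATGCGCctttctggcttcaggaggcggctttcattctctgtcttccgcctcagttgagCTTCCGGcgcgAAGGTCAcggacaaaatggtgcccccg

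The NRF1 word stood in 14 of the 33 windows (42.4%), against 11.0% of 16348 windows of all genes in the table and 6.31% of all 32851 windows. The ETS word stood in 12 windows (36.4%), against 14.6% and 8.86%. The ERR word stood in 5 windows (15.2%), against 3.44% and 4.72%, and a YY1 word, AANATGGCG, in 3 (9.09%), against 3.99% and 2.38%. The SP1 word GGGCGG was the one that stood in a smaller share of the subunit windows, 30.3%, against 57.3% and 35.7%. Of the 30 genes, 25 held at least 1 of these words, the SP1 word included. The same share over all windows was not computed, so this count has no background beside it. The palindrome GCGCATGCGC, seen in Cox6a1 and Atp5k, holds the NRF1 word once on each strand, in overlapping positions. Shares are of windows with at least 1 match, so repeats of a word in a window do not enter them. By complex, the NRF1 word was in 2 of 3 genes of complex II, 3 of 5 of complex III, 1 of 8 of complex IV and 8 of 14 of complex V. These matches are descriptions of letters, not of bound sites. Windows of Sdhc, Uqcrc2, Uqcrb, Uqcrq, Cyc1, Cox4i1, Cox6c and Atp5a1 were not used here.

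Mature adipocytes devoted a larger share of their reads to the subunit genes than stromal vascular cells. The 38 genes summed to 0.993 ± 0.061% of reads in Kdm5c+/- mature adipocytes and 0.896 ± 0.039% in wild-type ones, against 0.294 ± 0.030% and 0.290 ± 0.013% in the stromal vascular libraries of the same labels (SD, n = 3 each). The ratio of the fractions was 3.23 for the whole set, 3.50 for complex II, 3.20 for complex III, 3.42 for complex IV and 3.11 for complex V. Of the 38 genes, 37 were higher in mature adipocytes in limma on log2(CPM + 1) at an adjusted p under 0.05. This call was made for 28.7% of all 14193 genes tested, and a call in either direction for 87.8%. The median log2 difference was 1.52 over the 38 genes and -0.45 over all genes. Every mature adipocyte library lay above every stromal vascular one for 36 of the 38 genes. Of all 14193 genes tested, 3298 stood apart in that direction and 7297 in the other, so a lack of overlap was common.

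The scale of this comparison depends on how libraries are set against each other. In CPM, 4072 genes were called higher and 8394 lower in mature adipocytes. With TMM scaling the split was 6084 to 6165, with median-of-ratios scaling 5721 to 6550 and with quantile normalization 6678 to 5542. The median of all genes lay at -0.01, -0.09 and 0.11 under these scalings, and all 38 subunit genes were called higher under each. Relative to the median of all genes, the subunit genes stood at 1.97 in CPM and between 1.73 and 2.07 under the alternatives tried, so the values below are smaller than those under TMM by about the shift of the median of all genes. In mature adipocytes 10 genes took 15.7% to 19.3% of a library, against 5.77% to 8.41% in the stromal vascular fraction.

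**Figure D1:**
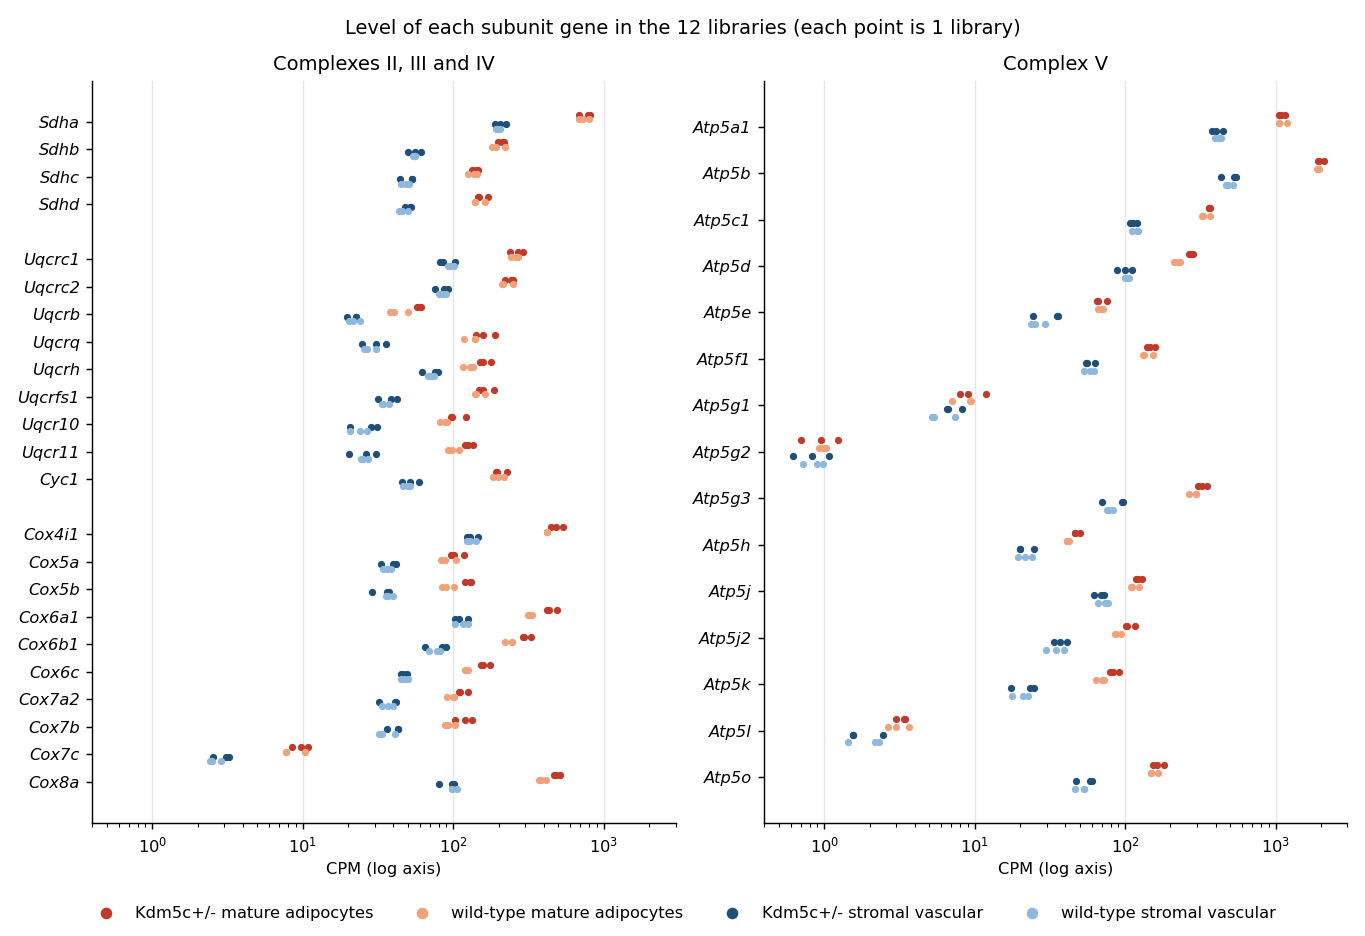
Level in CPM (log axis) of each of the 38 subunit genes in the 12 libraries, 1 point a library, with Kdm5c+/- above wild type and mature adipocytes above stromal vascular cells for each gene. The points of the fractions stand apart for 36 of the 38 genes, Atp5g1 and Atp5g2 being the exceptions. Of all 14193 genes tested, 3298 stand apart with mature adipocytes higher and 7297 with them lower.

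Complex II rose evenly in mature adipocytes, with all 4 subunits called and log2 differences of 1.47 to 1.89 (median 1.73). Sdha, the flavoprotein that oxidises succinate, had 808, 780.3 and 687 CPM in Kdm5c+/- and 799, 725 and 686 CPM in wild-type mature adipocytes, against 223, 206 and 189 CPM and 204, 192 and 195 CPM in the stromal vascular fraction (log2 difference 1.89 ± 0.07, limma adjusted p = 1.11e-10). Sdhb, the iron-sulfur subunit, had 217, 209 and 198 CPM and 220.0, 194 and 179.7 CPM in mature adipocytes, against 61.5, 55.6 and 50.2 CPM and 54.2, 55.6 and 55.6 CPM (1.85 ± 0.06). For both genes every mature adipocyte library lay above every stromal vascular one. Sdhc and Sdhd anchor the enzyme in the membrane. Sdhc had 147, 133 and 142 CPM in Kdm5c+/- and 143, 137 and 126 CPM in wild-type mature adipocytes, against 52.9, 53.3 and 44.1 CPM and 45.0, 48.2 and 51.1 CPM (1.47 ± 0.06). Sdhd, whose promoter window is printed above, had 170.2, 146 and 148 CPM and 162, 140.0 and 139 CPM, against 52.0, 51.9 and 47.7 CPM and 45.8, 43.9 and 49.7 CPM (1.62 ± 0.06). No stromal vascular library reached a mature adipocyte one for any subunit of the complex.

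In CPM, complex III held the largest median difference of the 4 complexes, 1.89, and also a wide range, 1.00 to 2.30, with all 9 subunits called. Cyc1, cytochrome c1, had 185 CPM at the lowest, 197 at the median and 229 at the highest of 6 mature adipocyte libraries, against 45.6, 50.9 and 59.5 CPM in the stromal vascular fraction (log2 difference 1.97 ± 0.08, limma adjusted p = 1.78e-10). Uqcrfs1, the Rieske iron-sulfur protein, had 139, 152 and 185 CPM, against 31.5, 35.8 and 42.5 CPM (2.07 ± 0.08). In mean CPM these redox subunits differed 3.98-fold and 4.28-fold. The core subunits Uqcrc1 and Uqcrc2 differed less, 1.48 ± 0.07 and 1.43 ± 0.07. Among the small accessory subunits, Uqcrq had 117, 141 and 189 CPM, against 24.7, 28.7 and 36.0 CPM (2.30 ± 0.10), the largest difference of the 38. Uqcr11 had 92.5, 114 and 135 CPM, against 20.3, 25.8 and 30.8 CPM (2.09 ± 0.09). Uqcrh, the hinge protein, was at the other end, with 116, 144 and 179 CPM in mature adipocytes, against 62.4, 72.9 and 79.0 CPM (1.00 ± 0.07, adjusted p = 5.9e-08). The values of Uqcrq and Uqcrh did not overlap between fractions in any library, although they lay at opposite ends of the complex.

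All 10 subunits of complex IV were called, between 1.38 and 2.16 with a median of 1.56. Cox8a, a small subunit with a tissue-restricted counterpart in Cox8b, had 373 CPM at the lowest, 441 at the median and 514 at the highest of the mature adipocyte libraries, against 80.6, 98.7 and 106 CPM in the stromal vascular fraction (log2 difference 2.16 ± 0.07, limma adjusted p = 3.16e-11). Cox6c had 121, 139 and 176 CPM, against 44.9, 46.8 and 50.1 CPM (1.56 ± 0.05). Cox4i1, the regulatory subunit expressed in most tissues, differed by 1.77 ± 0.07 and Cox6a1 by 1.74 ± 0.07. At the low end stood Cox5a, 1.38 ± 0.08, and Cox7c, 1.42 ± 0.10. Cox7c had 7.69 to 10.8 CPM in mature adipocytes, and its mean per kb of the longest transcript was 13.6 ± 1.61 in Kdm5c+/- and 12.2 ± 2.19 CPM per kb in wild type, the lowest of the complex in both.

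Complex V had the widest range in CPM. Of its 15 genes 14 were called, with a median of 1.30 and a range of 0.09 to 1.98. The low end was set by Atp5g2, Atp5g1 and Atp5l, which have low levels and share nearly all coding windows with other genes, as given below. With edgeR they stood at 0.67, 0.96 and 1.21. Without these genes the range was 0.76 to 1.98, against 1.00 to 2.30 in complex III. Differences of the catalytic head lay above the median of complex V. Atp5b, the beta subunit, had 1886, 1934 and 2105 CPM at the lowest, the median and the highest of the mature adipocyte libraries, against 436, 499.6 and 546 CPM in the stromal vascular fraction (log2 difference 1.98 ± 0.07, limma adjusted p = 1.27e-10). Atp5a1, the alpha subunit, had 1045, 1070.1 and 1183 CPM, against 375, 412 and 449 CPM (1.41 ± 0.07). Atp5c1, the gamma subunit of the rotating stalk, had 322, 361 and 367 CPM, against 108, 116 and 121 CPM (1.59 ± 0.05). These 3 subunits of the head and stalk stood clear of overlap. Atp5d and Atp5e, the other stalk subunits, differed by 1.28 ± 0.06 and 1.24 ± 0.09. Of the peripheral stalk, Atp5o differed by 1.58 ± 0.07, Atp5f1 by 1.30 ± 0.06, Atp5h by 1.01 ± 0.07 and Atp5j by 0.76 ± 0.06. Among the small membrane subunits, Atp5k differed by 1.81 ± 0.09 and Atp5j2 by 1.42 ± 0.08, while Atp5l had 2.67, 3.21 and 3.64 CPM, against 1.44, 1.87 and 2.45 CPM (0.53 ± 0.12, adjusted p = 0.00102).

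The 3 genes of the proton-carrying c ring, Atp5g1, Atp5g2 and Atp5g3, encode the same mature protein behind different import signals, and they behaved unlike each other in the table. Atp5g3 had 350.0, 303 and 324 CPM in Kdm5c+/- and 297, 266 and 294 CPM in wild-type mature adipocytes, against 96.1, 94.9 and 70.6 CPM and 75.3, 78.7 and 82.7 CPM in the stromal vascular fraction (log2 difference 1.87 ± 0.08). Atp5g1 had 11.8, 9.09 and 8.03 CPM and 7.07, 9.34 and 9.46 CPM in mature adipocytes, against 8.18, 6.69 and 6.53 CPM and 5.19, 5.34 and 7.45 CPM (0.42 ± 0.12, limma adjusted p = 0.00636). Atp5g2 had 0.954, 1.24 and 0.705 CPM and 1.03, 0.985 and 0.927 CPM, against 0.621, 0.824 and 1.07 CPM and 0.895, 0.718 and 0.981 CPM (0.09 ± 0.10, adjusted p = 0.38). The fractions overlapped for Atp5g1 and Atp5g2 and stood apart for Atp5g3. Atp5g2 was the 1 gene of the 38 not called in CPM, and it was called with median-of-ratios scaling (0.28, adjusted p = 0.0203), TMM scaling (0.32, adjusted p = 0.0097), quantile normalization (1.19, adjusted p = 3.44e-07) and edgeR's quasi-likelihood test on whole reads (0.67, adjusted p = 0.014).

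The last 90 coding bases of the c subunit genes are printed to show where the 3 genes differ in letters although they encode the same mature protein, from GENCODE transcripts on GRCm38 (Atp5g1 at chr11:96068852-96075670, Atp5g2 at chr15:102662864-102672352 and Atp5g3 at chr2:73908447-73911326, all on the minus strand). Capitals mark the 24 positions at which the 3 sequences are not all the same.
Atp5g1: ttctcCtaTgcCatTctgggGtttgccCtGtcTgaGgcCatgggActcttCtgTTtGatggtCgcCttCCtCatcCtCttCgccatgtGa
Atp5g2: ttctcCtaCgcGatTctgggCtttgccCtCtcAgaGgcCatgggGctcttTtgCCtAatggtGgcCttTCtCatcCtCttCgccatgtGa
Atp5g3: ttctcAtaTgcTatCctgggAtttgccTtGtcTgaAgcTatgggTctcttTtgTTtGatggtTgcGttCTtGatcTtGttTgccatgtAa

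Over the last 228 coding bases, Atp5g1 and Atp5g2 shared 194 (85.1%), Atp5g1 and Atp5g3 182 (79.8%) and Atp5g2 and Atp5g3 179 (78.5%), with no identical run over 21 bases. The low values of Atp5g1 and Atp5g2 go with coding sequence that pseudogenes repeat. Each coding sequence of the 38 genes was cut into all its windows of 50 bases, and each window was looked for in the transcripts of other annotated genes. Genes that overlap the subunit gene in position were left out of this search. All windows of Cox7c, Atp5g2 and Atp5l, and 99.7% of those of Atp5g1, were found in another gene, and Atp5g3 had none. The genes that held them were 3 for Atp5g1, 2 for Atp5g2 and 3 for Cox7c, all pseudogenes, and 13 for Atp5l, 12 of them pseudogenes. Per kb of the longest transcript, these 4 genes had 0.490 to 12.2 CPM per kb in wild-type mature adipocytes. The 4 genes with 50% to 99% of windows elsewhere, Uqcrb, Cox5b, Cox6c and Atp5h, had 40.6 to 106 CPM per kb. The 12 with fewer had 42.2 to 1001 CPM per kb, and the 18 genes with none had 40.6 to 706 CPM per kb. Spearman's rho between the share of such windows and the level per kb of the longest transcript was -0.50 over the 38 genes, a description across genes of 1 group. How reads that fit several places were counted is not given in the sources used here, so the levels of genes with such windows are uncertain. The part of such counting in the difference between the c subunit genes was not tested. Among the 18 genes with no such window, 18 were called higher in mature adipocytes (median 1.77), and among the other 20 genes 19 were (median 1.42). Of the 38 genes, 6 overlap another gene on the same strand and 13 on the other strand. Examples on the same strand are Cox4i1 with Gm20388 and Atp5o with Donson and Cryzl1. On the other strand they include Atp5j with Gabpa, Cox6c with Vps13b, Atp5d with Cbarp and Atp5a1 with Haus1. The levels of such genes are uncertain where reads of the neighbour could be counted, and windows shared with these neighbours do not enter the shares above.

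**Figure D2:**
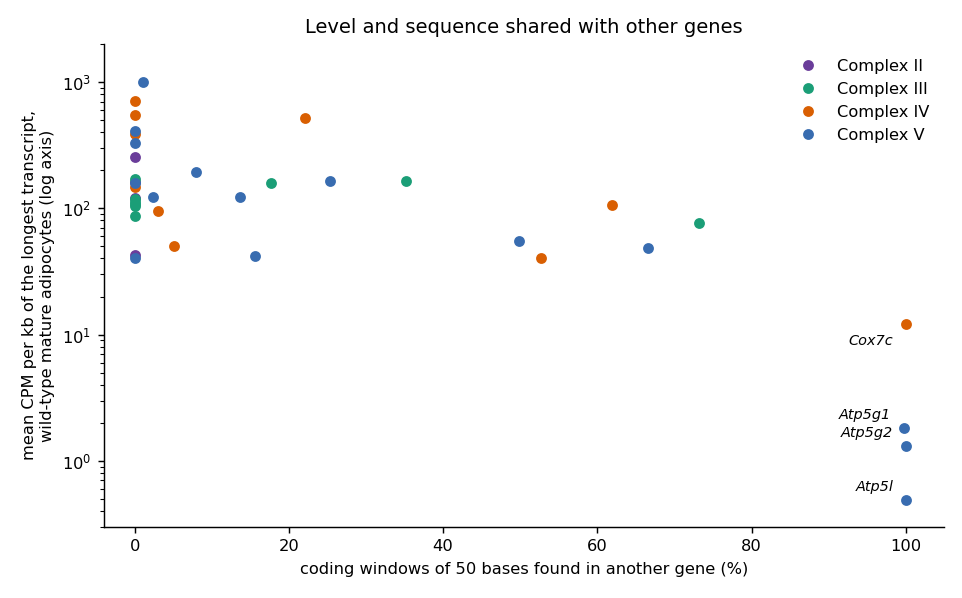
Mean CPM per kb of the longest transcript in wild-type mature adipocytes (log axis) against the percentage of coding windows of 50 bases that another gene also holds, 1 point a gene, coloured by complex. Genes that overlap the subunit gene in position were not searched. The 4 genes at or near 100% (Cox7c, Atp5g1, Atp5g2 and Atp5l) lie between 0.490 and 12.2 CPM per kb, below all the others.

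Per kb of the longest annotated transcript, the median level of the complexes in mature adipocytes was similar. It was 147 CPM per kb in Kdm5c+/- and 140.0 in wild-type libraries for complex II, 119.7 and 111 for complex III, 160.4 and 126 for complex IV, and 133 and 122 for complex V. With the median coding transcript as the length it was 178 and 169.6, 284 and 225, 235 and 175, and 198 and 164 CPM per kb for the same complexes, so the order of the complexes depends on the length used. The highest level per kb was that of Atp5b, 1037 ± 53.9 in Kdm5c+/- and 1001 ± 15.4 CPM per kb in wild-type mature adipocytes, with both lengths. Cox8a came next, 888 ± 41.7 and 706 ± 36.7 CPM per kb. Within complex II the order was Sdha (262 ± 21.9 and 254 ± 19.8), Sdhb (169 ± 7.79 and 161 ± 16.6), Sdhd (126 ± 10.9 and 119 ± 10.7) and Sdhc (44.4 ± 2.22 and 42.7 ± 2.74 CPM per kb). Neighbours in that order stood apart in both labels, and Sdhc had 173 ± 8.65 and 166 ± 10.7 CPM per kb with its median coding transcript, within the spread of Sdhb. In complex III, Uqcr10, Uqcr11 and Uqcrh were highest with the longest transcript and overlapped each other (207 ± 28.3, 209 ± 13.6 and 203 ± 18.6 in Kdm5c+/-, and 171 ± 10.1, 165 ± 14.2 and 159 ± 12.6 CPM per kb in wild type), while Uqcrc1 was highest with the median coding transcript (501 ± 49.4 and 482 ± 26.7). That length of Uqcrc1, 533 bases, is shorter than its coding sequence of 1443 bases, so this value and its rank are not reliable. The median coding transcripts of Sdha, Uqcrc2, Cyc1 and Atp5o are also shorter than their coding sequences.

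Other parts of the oxidative machinery were higher in mature adipocytes too, from lists of related genes. Of 35 nuclear subunits of complex I, the entry point for NADH, 35 were called higher (median 1.40), led by Ndufb3 (2.19 ± 0.05), Ndufb9 (2.13) and Ndufa10 (2.08). Of 34 assembly factors, proteins that build the complexes without staying in them, 31 were called higher, 1 lower, and the median was 0.91. All 4 factors of complex II, 6 of complex III and 4 of complex V were among them, with Atpaf2 (2.12), Tmem70 (1.68) and Uqcc1 (1.49) as examples. Of 20 for complex IV, 17 were called higher, led by the copper chaperone Cox19 (2.20), and Coa4 was called lower (-0.34, adjusted p = 0.00894), a call that was lost with median-of-ratios, TMM scaling and edgeR and turned to 0.98 with quantile normalization. The copper chaperones Sco1 (0.11, adjusted p = 0.149) and Sco2 (-0.10, adjusted p = 0.456) were not called in CPM. Sco1 was called higher with median-of-ratios (0.47), TMM (0.55) and quantile scaling (0.79) and with edgeR (0.60). Among these alternatives Sco2 was called with quantile normalization only (1.16).

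Isoform genes and subunits assigned to the complexes later moved in both directions, 7 of 12 called higher and 5 lower. Cox8b, the heart, muscle and brown fat counterpart of Cox8a, had 20.0, 32.2 and 56.3 CPM at the lowest, the median and the highest of the mature adipocyte libraries, against 0.359, 1.53 and 3.43 CPM in the stromal vascular fraction (log2 difference 3.69 ± 0.26, limma adjusted p = 5.6e-08). Cox7a1, the muscle counterpart of Cox7a2, was higher as well (1.41 ± 0.13), as was Ndufa4 (2.07 ± 0.09), now counted with complex IV. Cox4i2, the alternative to Cox4i1, had 0.120, 0.622 and 0.734 CPM in mature adipocytes, against 6.64, 14.3 and 17.6 CPM (-3.24 ± 0.17, adjusted p = 3.13e-09). Ndufa4l2, the alternative to Ndufa4, had 0.720, 1.94 and 2.62 CPM, against 43.4, 75.4 and 99.3 CPM (-4.79 ± 0.17). So for Cox4 and Ndufa4 one gene was higher in each fraction, with no overlap between fractions. Atpif1, the inhibitor of the ATP synthase, was lower in mature adipocytes (-0.94 ± 0.11), and so was Cox7a2l (-0.64 ± 0.06). Cox6b2, the testis isoform, was lower too (-0.61 ± 0.13) and turned to 0.69 with quantile normalization.

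Regulators of nuclear genes for mitochondria moved in both directions, 6 of 15 being called higher and 7 lower (median -0.06). Ppargc1a, the coactivator PGC-1alpha, had 17.3, 26.0 and 31.5 CPM at the lowest, the median and the highest of the mature adipocyte libraries, against 2.26, 2.38 and 3.94 CPM in the stromal vascular fraction (log2 difference 2.78 ± 0.12, limma adjusted p = 5.78e-10). Nrf1 had 12.9, 15.1 and 17.2 CPM, against 33.3, 35.7 and 39.2 CPM (-1.23 ± 0.07), and Gabpa and Gabpb1, the GABP subunits, were lower too (-0.77 ± 0.06 and -1.96 ± 0.09). These differences stand on the CPM scale, and with TMM, median-of-ratios and quantile scaling and with edgeR they kept their sign and stayed called, while the split of the 15 became 8 higher and 5 lower with TMM. Named after their values were seen, Esrra, the ERR gene of the list that is broadly expressed, was higher (0.98 ± 0.14, adjusted p = 5.0e-05), as were Ppargc1b, a relative of PGC-1alpha (1.78 ± 0.15), and Tfb1m, a methyltransferase of mitochondrial ribosomal RNA (1.14 ± 0.09), under every scaling and with edgeR. Pprc1, another relative of PGC-1alpha, went the other way (-1.25, limma adjusted p = 1.98e-07). It stayed called lower under every scaling and with edgeR, at -0.87 to -0.79. Yy1 (-0.47) and Esrrb (-0.96) were called lower in CPM and turned in sign under at least 1 of the other scalings or with edgeR.

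**Figure D3:**
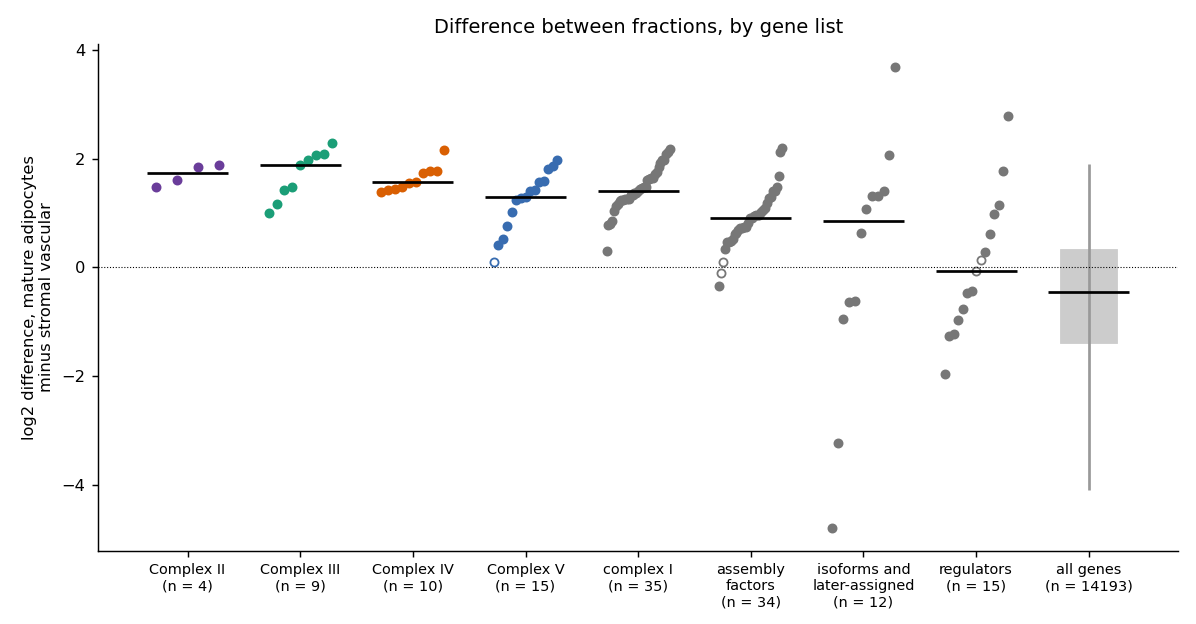
Log2 difference between fractions (mature adipocytes minus stromal vascular, y axis) of every tested gene, 1 point each, grouped by complex or companion list, with bars at list medians and the median of all genes at -0.45. The subunit genes of complexes II to V lie between 0.09 and 2.30, and the isoform and regulator lists spread on both sides of 0.

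In mature adipocytes, no subunit gene differed between the genotype labels at an adjusted p under 0.05: 0 of 37 tested, as for 0 of 11913 genes in all (0%). Atp5g2 fell under the filter on low values. At an unadjusted p under 0.05 there were 15 of the 37, all higher in Kdm5c+/-, beside 664 higher and 1073 lower of all genes, and edgeR's quasi-likelihood test gave 0 calls and 17 at an unadjusted p under 0.05, beside 1755 of all genes. The median log2 difference was 0.19 over the 37 genes, 36 of them above 0, and -0.03 over all genes. In 17 of the 37 genes all 3 Kdm5c+/- libraries lay above all 3 wild-type libraries, against 9.44% of all genes tested. The smallest adjusted p was 0.273.

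By complex, the median difference was 0.06 for complex II, 0.27 for complex III, 0.32 for complex IV and 0.10 for complex V. With each library left out in turn these ran from 0.0087 to 0.12, from 0.16 to 0.31, from 0.26 to 0.37 and from 0.057 to 0.16. The lowest values came without wild-type library 3 for complex II and without Kdm5c+/- library 1 for the others, and the highest without Kdm5c+/- library 2 for complex III and without wild-type library 1 for the others. The complexes were not tested against each other. At an unadjusted p under 0.05 there were 0 of 4, 4 of 9, 7 of 10 and 4 of 14 genes, and without overlap between the labels 0, 5, 7 and 5. Summed over its genes, complex IV had 2564, 2296 and 2241 CPM in Kdm5c+/-, against 1939.55, 1802 and 1881 CPM in wild type, 1.26 times as much. Complex III had 1644, 1404 and 1423 CPM in Kdm5c+/-, against 1409, 1256.5 and 1288 CPM (1.13 times), complex V 5084, 4658 and 4684 CPM, against 4729, 4464 and 4449 CPM (1.06 times), and complex II 1343, 1269 and 1175 CPM, against 1324, 1196 and 1130.2 CPM (1.04 times). The labels stood apart for the sum of complex IV and overlapped for the other 3 sums.

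The members of complex IV with the smallest p were Cox5b and Cox6a1. Cox5b, a zinc-binding structural subunit, had 131, 129 and 119 CPM in Kdm5c+/-, against 101, 84.5 and 89.0 CPM in wild type (log2 difference 0.46 ± 0.09, limma adjusted p = 0.273). Cox6a1, whose promoter window is printed above, had 491, 423 and 432 CPM, against 319, 313 and 333 CPM (0.48 ± 0.10, adjusted p = 0.273). All 3 Kdm5c+/- libraries were above all 3 wild-type ones for both genes, as for Cox4i1, Cox6b1, Cox6c, Cox7a2 and Cox8a, and the smallest log2 difference of the complex was that of Cox7c, 0.15 ± 0.15. In complex III, Uqcrb, a subunit near the ubiquinone site, had 61.3, 57.8 and 59.9 CPM in Kdm5c+/-, against 50.3, 37.9 and 40.4 CPM in wild type (0.48 ± 0.11, adjusted p = 0.273). Uqcr11 had 135, 119 and 124 CPM, against 98.2, 92.5 and 109 CPM (0.34 ± 0.09, adjusted p = 0.279). Neither gene overlapped between labels. Of the coding windows, 61.9% for Cox5b, 22.1% for Cox6a1, 73.2% for Uqcrb and 35.2% for Uqcr11 were found in another gene, so these levels are uncertain too. The redox subunits did overlap between labels: Cyc1 had 229, 193 and 196 CPM, against 216, 198 and 185 CPM (0.04 ± 0.10, adjusted p = 0.863), and Uqcrfs1 185, 157 and 147 CPM, against 162, 139 and 142 CPM (0.14 ± 0.11, adjusted p = 0.575).

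The complex V genes with the smallest p were Atp5d and Atp5k. Atp5d, the delta subunit of the central stalk, had 283, 264 and 272 CPM in Kdm5c+/-, against 232, 211 and 225 CPM in wild type (log2 difference 0.29 ± 0.08, limma adjusted p = 0.286), and Atp5k, the small e subunit, 91.1, 79.1 and 83.0 CPM, against 72.5, 64.1 and 69.7 CPM (0.29 ± 0.09, adjusted p = 0.289). Neither overlapped between labels. The catalytic subunits did overlap: Atp5a1 had 1161, 1059 and 1081 CPM, against 1183, 1045 and 1052 CPM (0.01 ± 0.11, adjusted p = 0.974), and Atp5b 2105, 1948 and 1910.2 CPM, against 1923, 1944 and 1886 CPM (0.05 ± 0.11, adjusted p = 0.852). Atp5e, the epsilon subunit, was the 1 gene below 0, with 75.8, 65.1 and 65.5 CPM, against 66.2, 71.3 and 69.3 CPM (-0.01 ± 0.09), and its sign turned with TMM, median-of-ratios and quantile scaling and with edgeR (0.04 in each). Of the c subunit genes, whose values by library stand above, Atp5g3 did not overlap between labels (0.19 ± 0.10, adjusted p = 0.395) and Atp5g1 did (0.14 ± 0.17, adjusted p = 0.716). All 4 genes of complex II overlapped, with log2 differences from 0.04 ± 0.12 for Sdha to 0.08 ± 0.10 for Sdhb.

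**Figure D4:**
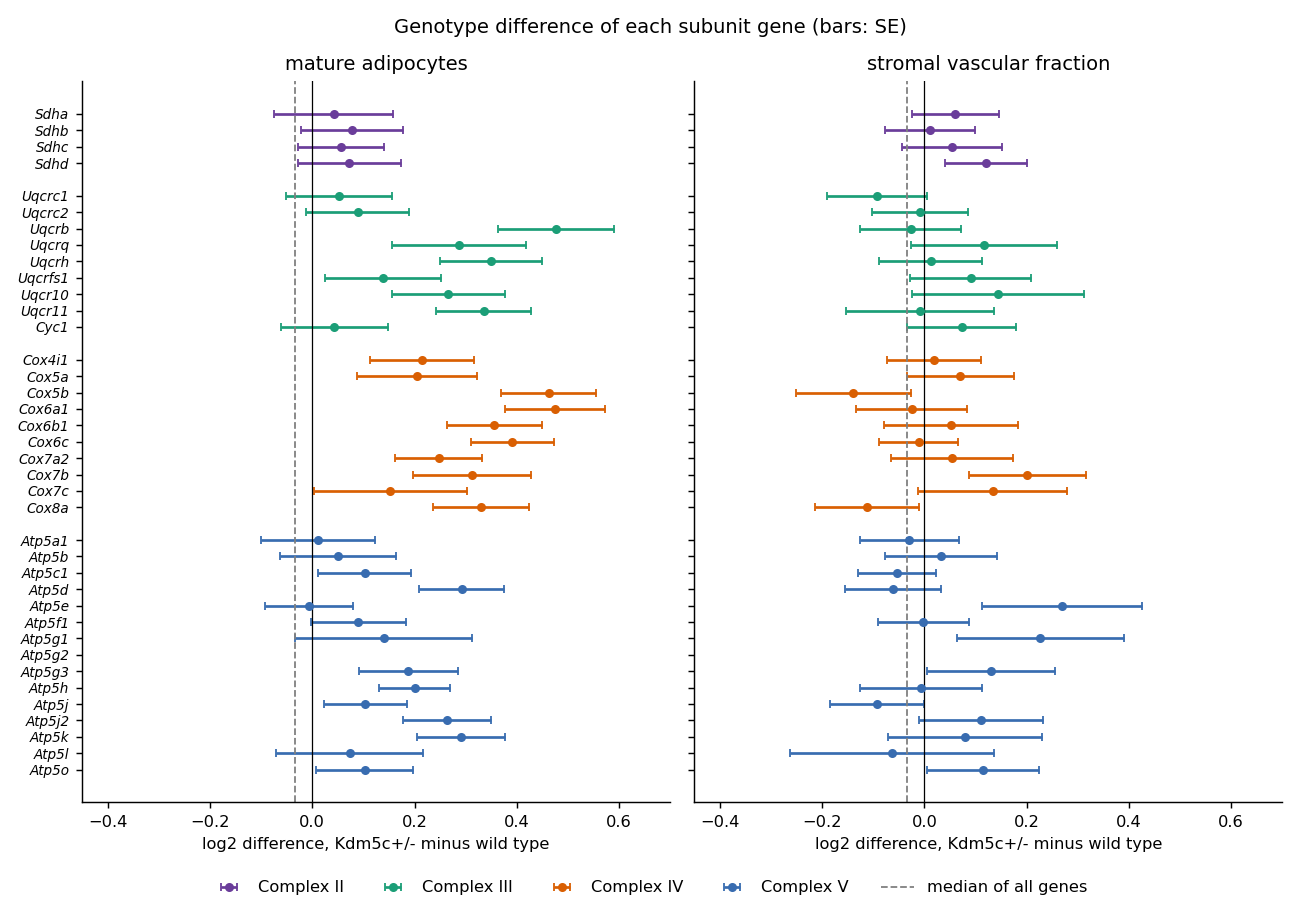
Log2 difference between the labels (Kdm5c+/- minus wild type) of each tested subunit gene with its SE, for mature adipocytes and for the stromal vascular fraction, coloured by complex; the dashed line is the median of all genes. In mature adipocytes 36 of 37 genes lie above 0, and in the stromal vascular fraction 22 of 37 do.

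One library and marker genes of other cell types moved with these differences. The first Kdm5c+/- library had the highest level of the 6 mature adipocyte libraries for 34 of the 38 genes, and wild-type libraries 2 and 3 the lowest for 20 and 13. Without that Kdm5c+/- library the median of the subunit genes was 0.12, with 31 of 37 above 0, 10 at an unadjusted p under 0.05 and a smallest adjusted p of 0.612, and over all 6 libraries left out in turn the median was 0.12 to 0.23. Of all 11847 genes tested without it, 950 had an unadjusted p under 0.05. The 10 mature adipocyte markers summed to 45147 to 55448 CPM in Kdm5c+/-, against 39734 to 40557 CPM in wild type, with 7 of 10 genes higher, 4 of them at an unadjusted p under 0.05, 0 called and a median log2 difference of 0.29. The 10 endothelial markers summed to 127 to 237 CPM, against 283 to 349 CPM, with 10 of 10 lower, 7 of them at an unadjusted p under 0.05, 0 called and a median of -0.65. Sums of 8 pericyte and smooth muscle markers were 205 to 344 CPM, against 337 to 524 CPM, of 8 progenitor markers 72.5 to 74.7 CPM, against 84.9 to 155 CPM, and of 8 macrophage markers 36.4 to 40.2 CPM, against 37.7 to 111 CPM. In these lists 7, 8 and 8 genes were lower in Kdm5c+/-, 6, 2 and 1 of them at an unadjusted p under 0.05, and 0 were called. As a percentage of the stromal vascular sum of the same label, the endothelial sum was 2.50% in Kdm5c+/- and 3.55% in wild-type mature adipocytes. Brown or beige fat markers summed to 85.9 to 116 CPM, against 61.5 to 111 CPM, with Zic1 at 0, which allows a level up to the floor given above, in the Kdm5c+/- libraries, and 8 skeletal muscle markers to 26.4 to 48.6 CPM, against 31.3 to 90.0 CPM. Lymphocyte markers were at 2.84 to 3.38 CPM, against 1.89 to 8.60 CPM, and mammary epithelium markers at 1.14 to 1.50 CPM, against 1.26 to 1.74 CPM, with Krt14 at 0 in Kdm5c+/-. Rn45s, ribosomal RNA left in the libraries, had 4813 to 7692 CPM, against 3794 to 4386 CPM. The part of these in the difference of the subunit genes was not tested.

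The difference also moved with transcript length, over all genes and over the subunit genes. Among all genes, the median log2 difference was 0.04 for median coding transcripts of up to 700 bases, 0.02 from 700 to 1500, -0.05 from 1500 to 4000 and -0.12 above 4000 bases. The subunit genes stood at 0.28 (20 genes), 0.10 (13 genes) and 0.05 (4 genes) in the first 3 classes, with none in the last. Across the 37 genes Spearman's rho between length and difference was -0.48, given as a description. Complex IV was at 0.34 for its 8 genes of up to 700 bases and 0.26 for its 2 longer ones, complex III at 0.31 for 6 and 0.09 for 3, complex V at 0.15 for 6 and 0.10 for 8, and all 4 genes of complex II were longer than 700 bases. Uqcrc1 (0.05) was among the 6 of complex III by its median coding transcript of 533 bases, although its coding sequence has 1443 bases. The 18 genes with no coding window shared with a gene outside their own position had a median of 0.11, and the 19 tested with such a window 0.21. The part of length in the difference between the labels was not tested.

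**Figure D5:**
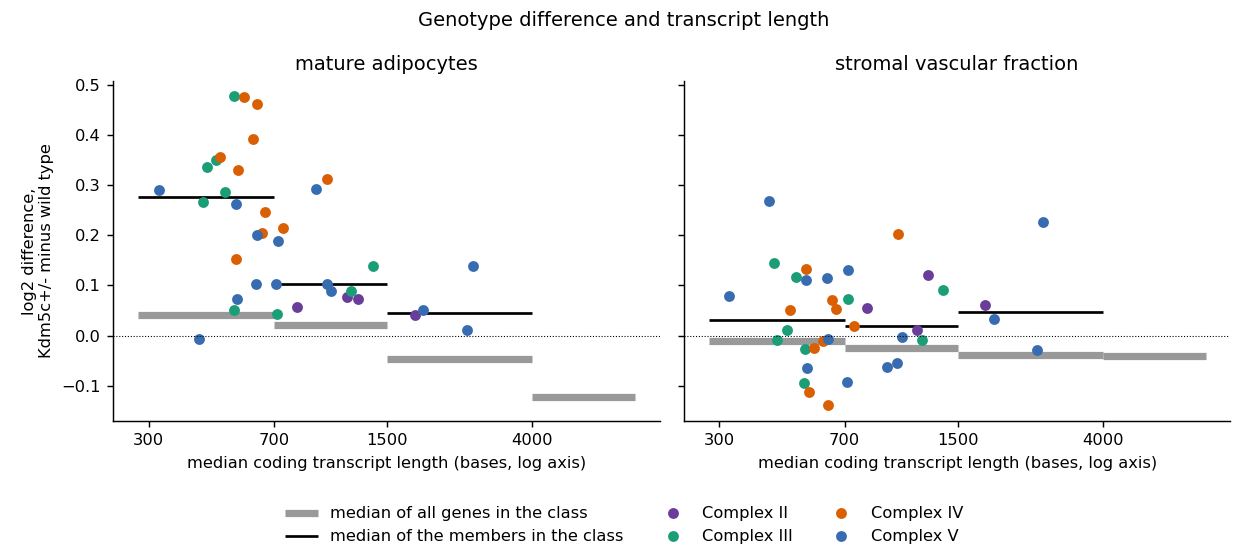
Log2 difference between the labels (Kdm5c+/- minus wild type) against the median coding transcript length (bases, log axis), 1 point a subunit gene coloured by complex, with 1 panel a fraction; grey bars are medians of all genes and black bars medians of the subunit genes in each length class. In mature adipocytes the subunit medians step down through 0.28, 0.10 and 0.05, and in the stromal vascular fraction they are 0.03, 0.02 and 0.05. Uqcrc1 stands at 533 bases, although its coding sequence has 1443 bases.

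Of the companion lists, limma called 0 genes between labels in mature adipocytes. Of 35 complex I subunits, 32 lay above 0 (median 0.19) and 15 at an unadjusted p under 0.05, led by Ndufa1 with 88.9, 84.4 and 80.2 CPM in Kdm5c+/-, against 58.0, 51.3 and 58.6 CPM in wild type (0.59 ± 0.08, limma adjusted p = 0.273). Ndufa1 did not overlap between labels. The 34 assembly factors had a median of 0.06, with 21 above 0 and 2 at an unadjusted p under 0.05, and with Pet100, a complex IV factor, at 0.46 ± 0.14 (adjusted p = 0.289). The 14 regulators tested had a median of -0.05, with 5 above 0. Ppargc1a had 19.3, 17.3 and 26.9 CPM in Kdm5c+/-, against 31.5, 27.3 and 25.0 CPM in wild type (-0.40 ± 0.17, adjusted p = 0.342), and the labels overlapped. Cox8b had 56.3, 44.6 and 31.0 CPM, against 33.4, 20.0 and 22.1 CPM (0.78 ± 0.26, adjusted p = 0.3), with 1 Kdm5c+/- library below the highest wild-type one.

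In the stromal vascular fraction no subunit gene was called between the labels, and their differences lay on both sides of 0, between -0.14 for Cox5b and 0.27 for Atp5e. Limma called 0 of 37, against 1 of 13792 genes in all (0.00725%). An unadjusted p under 0.05 was found for 0 of the 37, beside 1043 of all genes, and edgeR gave 0 subunit genes for both. The median log2 difference was 0.03, with 22 of 37 above 0 (30 with TMM or median-of-ratios scaling and 28 with quantile normalization), and -0.03 over all genes. In 0 of 37 genes did the Kdm5c+/- libraries all lie above the wild-type ones, against 3.74% of all genes tested. The medians were 0.06 for complex II, 0.01 for complex III, 0.03 for complex IV and 0.02 for complex V. Without Kdm5c+/- library 1 they stood at 0.0075, -0.03, -0.04 and -0.05, and without Kdm5c+/- library 3 they stood at 0.13, 0.15, 0.12 and 0.09. The ratio of the summed levels was 1.05 for complex II, 1.01 for complex III, 1.00 for complex IV and 1.01 for complex V.

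The genes of the stromal vascular fraction with the smallest p in each complex, and those farthest below 0, were named. Cox7b had 43.2, 43.2 and 36.5 CPM in Kdm5c+/-, against 33.8, 32.1 and 40.8 CPM in wild type (log2 difference 0.20 ± 0.12, limma adjusted p = 0.684). Cox5b, which was higher in Kdm5c+/- mature adipocytes without overlap, had 37.2, 36.5 and 28.7 CPM here, against 35.9, 39.7 and 36.8 CPM (-0.14 ± 0.11, adjusted p = 0.765), and Cox8a 102, 98.5 and 80.6 CPM, against 98.0, 106 and 98.8 CPM (-0.11 ± 0.10, adjusted p = 0.792). In each of these 3 genes 1 library or more of a label lay inside the range of the other. Atp5e had 35.0, 36.0 and 24.5 CPM, against 23.8, 25.0 and 29.1 CPM (0.27 ± 0.16, adjusted p = 0.69), and Atp5g1 differed by 0.23 ± 0.16 (adjusted p = 0.743). Uqcr10 had 31.3, 28.6 and 20.5 CPM, against 20.7, 24.1 and 26.9 CPM (0.14 ± 0.17, adjusted p = 0.848), and Uqcrc1 103, 82.1 and 86.1 CPM, against 91.7, 95.6 and 101 CPM (-0.09 ± 0.10, adjusted p = 0.825). The labels overlapped for all of them. Of the catalytic subunits, Atp5a1 had 449, 403 and 375 CPM in Kdm5c+/-, against 392, 436 and 421 CPM in wild type (-0.03 ± 0.10), and Atp5b 546, 525 and 436 CPM, against 469, 479.5 and 519.7 CPM (0.03 ± 0.11). Of the redox subunits of complex III, Cyc1 had 59.5, 51.9 and 45.6 CPM, against 50.0, 46.5 and 51.9 CPM (0.07 ± 0.11), and Uqcrfs1 42.5, 38.7 and 31.5 CPM, against 33.9, 33.5 and 37.7 CPM (0.09 ± 0.12). These overlapped too, as did all 4 genes of complex II, which differed by 0.01 ± 0.09 (Sdhb) to 0.12 ± 0.08 (Sdhd). The first Kdm5c+/- library was highest of the 6 for 26 of the 38 genes and Kdm5c+/- library 3 lowest for 23. Without library 1 the median was -0.03, with 12 of 37 above 0, and without library 3 it was 0.13, with 32 above 0. In the fit without library 3, 4 of the 37 had an unadjusted p under 0.05, beside 1496 of all 13724 genes, a similar share. Ribosomal RNA and marker genes of cell types were compared between the labels in these stromal vascular libraries too. Rn45s had 8985 to 19532 CPM in Kdm5c+/-, against 6554 to 6733 CPM in wild type, with no overlap. Macrophage markers had 8 of 8 genes higher in Kdm5c+/- (median log2 difference 0.35, sums of 2138 to 3107 CPM, against 2114 to 2236 CPM), pericyte and smooth muscle markers 8 of 8 lower (-0.36, 3439 to 3964 CPM, against 3944 to 4929 CPM) and endothelial markers 9 of 10 lower (-0.20, 6911 to 8875 CPM, against 8632 to 9288 CPM), with 0 genes called by limma and 3, 3 and 1 at an unadjusted p under 0.05. Adipocyte markers had 8 of 10 genes higher in Kdm5c+/- (median log2 difference 0.55, sums of 4546 to 8271 CPM, against 4923 to 5751 CPM). Limma called 0 of them, and 1 had an unadjusted p under 0.05. The ranges of these marker sums overlapped between the labels. The part of the markers and of Rn45s in the values of the subunit genes was not tested.

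Whether the difference between the labels was unlike in the fractions was tested directly, as the difference in mature adipocytes minus that in the stromal vascular fraction. Limma called 0 of 38 subunit genes and 0 of 14193 genes (0%), and 7 of the 38 had an unadjusted p under 0.05, beside 1267 of all genes. With edgeR there were 0 calls and 6 subunit genes at an unadjusted p under 0.05, beside 1427 of all genes. The median was 0.14, with 32 of 38 above 0, and -0.01 over all genes. Single libraries moved it by more than 1.5 times: it was 0.055 without stromal vascular Kdm5c+/- library 3 (23 of 37 above 0), 0.057 without mature adipocyte Kdm5c+/- library 1 (28 of 38), 0.081 without mature adipocyte wild-type library 2 (31 of 38), 0.088 without stromal vascular wild-type library 3 (27 of 38) and 0.22 without stromal vascular Kdm5c+/- library 1 (35 of 38). By complex it was -0.01 for complex II, 0.15 for complex III, 0.25 for complex IV and 0.09 for complex V, and with each library left out it ran from -0.08 to 0.04, from 0.03 to 0.24, from 0.15 to 0.33 and from 0.04 to 0.15 for the same complexes. Cox5b stood at 0.60 ± 0.15 (adjusted p = 0.445), Cox6c at 0.40 ± 0.10 (adjusted p = 0.445), Uqcrb at 0.50 ± 0.15 (adjusted p = 0.504), Uqcrh at 0.34 ± 0.14 (adjusted p = 0.54), Atp5d at 0.35 ± 0.12 (adjusted p = 0.509) and Atp5j at 0.20 ± 0.12 (adjusted p = 0.653). On the other side of 0 lay Atp5e at -0.28 ± 0.19 (adjusted p = 0.698) and Atp5g1 at -0.09 ± 0.24 (adjusted p = 0.943). Cox5b, Cox6c and Uqcrb have 50% to 99% of their coding windows in other genes, as given above. The genotype difference of the subunit genes was therefore not shown to differ between the fractions.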

How the data were processed

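RNA was measured in 12 libraries of mature adipocytes or stromal vascular cells, each from a pool of 2 mice. The submitters' processing notes name the build GRCm38 and the tools STAR (2.7.2a) and edgeR (3.26.8). The counting tool, its strand setting and its annotation were not given in the sources used here. Per the labels' protocols the libraries are strand-specific. The deposited values are CPM, which the authors scaled to 1000000 per library. Low values were multiples of a fixed step, and 100% of values came out as whole reads to within 0.05 read.

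The values were taken as log2(CPM + 1), a scale that understates changes of low genes, and fitted in limma (version 3.58.1, R version 4.3.3) with a robust and trended eBayes step. A gene was tested if 3 or more of the fitted libraries had at least 1 CPM. Tests were two-sided, p-values were adjusted by Benjamini-Hochberg over every gene tested, and 0.05 was the threshold. Genotype labels were compared within each fraction on its 6 libraries, and the fractions and the difference of the differences on all 12. The alternatives were a pseudocount of 0.25, no filter, a filter at a mean of 5 CPM, scaling by median of ratios, TMM or quantiles, a replicate block, all 12 libraries in one fit, wild-type libraries only, each library left out, and edgeR (version 4.0.16) on the whole reads. Only in the replicate block across fractions were fractions of the same label and number taken as pairs. This pairing came from the data, since their deviations from the group means correlated at 0.169 to 0.278 across genes in all 6 pairs. The fits were tested on simulated data.

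Transcript lengths, coding sequences and gene positions came from GENCODE on GRCm38 and promoter windows from RefSeq; 15866 symbols (95.2%) matched GENCODE. Python (3.11.15) with pandas (2.3.3) and numpy (2.4.6) read the files, and matplotlib (3.10.9) drew the figures. The genes, companion lists and marker lists were chosen with earlier results of these data known. All 4 complex II genes, the c subunit genes, Atp5a1, Atp5b, Cyc1 and Uqcrfs1 were to be named, and in each comparison the 2 genes with the smallest p of complexes III, IV and V, the 2 farthest against the median, and up to 4 genes of a companion list by p. Other genes were named after their values were seen, among them Uqcrq, Uqcr11, Atp5j, Atp5l and Cox7c between fractions. Mean CPM is given ± SD and log2 differences ± SE.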

Additional observations from a re-analysis of the deposited data

How the results depend on the processing

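Under each alternative tried, 0 subunit genes were called between labels in either fraction or for the difference of the differences, and 36 to 38 were called between fractions, where the filter at a mean of 5 CPM gave the 36. The median difference between fractions over the subunit genes was 1.91 with median-of-ratios scaling, 2.00 with TMM, 1.84 with quantile normalization, 2.06 with edgeR and 1.41 in wild-type libraries only. By complex, II, III, IV and V stood at 2.12, 2.28, 1.95 and 1.69 with median-of-ratios scaling, 2.21, 2.36, 2.04 and 1.77 with TMM, 1.92, 2.25, 1.91 and 1.64 with quantile normalization, and 2.23, 2.40, 2.13 and 1.79 with edgeR. Complex IV was at 1.40 in wild-type libraries only, and complex V at 1.41 with a mean of at least 5 CPM. The cause was not tested. Over all genes, calls between labels numbered 1 in mature adipocytes and 4 in stromal vascular cells with all 12 libraries in one fit. Leaving out each library gave 0 to 3 in mature adipocytes, 0 in each stromal vascular fit and 0 to 7 for the difference of the differences. Levels per kb with the median coding transcript were 169.6, 224.7, 175 and 164.

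Replicate numbers of the labels did not pair the genotypes (correlations -0.28 to 0.34), and with them as a replicate block 0 genes were called in the stromal vascular fraction and 0 subunit genes in mature adipocytes (smallest adjusted p = 0.34). The block of paired fractions changed no call of a subunit gene (37 called), and the smallest limma adjusted p between fractions was 9.3e-09, against 3.2e-11 unpaired. For the difference of the differences this block gave 0 calls. There, 7 subunit genes had an unadjusted p under 0.05, beside 1603 of all genes. Uncalled differences between labels turned in sign. In mature adipocytes Atp5b was -0.0353 with quantile normalization and Atp5e 0.0374 with median-of-ratios scaling, 0.0388 with TMM, 0.0395 with quantile normalization and 0.0396 with edgeR. With each library left out, Sdha ran from -0.0084 to 0.112, Atp5g1 from -0.00217 to 0.25, Atp5a1 from -0.028 to 0.069, Cyc1 from -0.034 to 0.102 and Atp5e from -0.077 to 0.031, and Atp5g1 ran from -0.231 to 0.023 for the difference of the differences. Reads limit Atp5g2 most, at 0.621 to 1.24 CPM against a floor of 0.102 to 0.137 CPM.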
